A study of Homo sapiens with 26 samples.

Results

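H3K27ac was compared between the RAD21 line and WT after 1 h of Nutlin-3a, using the peak lists of RAD21 line replicates 1 and 2 and of WT replicates 1 and 2. Peaks of all 10 H3K27ac lists were merged where they overlapped, which gave 87603 regions, of which 52673 were called in at least 1 of the 4 lists at 1 h and form the subject here. WT stands for HCT116, a human colorectal cancer cell line with functional p53. The RAD21 line is HCT116 in which the alleles of RAD21 carry an auxin-inducible degron, so that the protein can be removed with the ligand 5-Ph-IAA. The labels name the line and the hours of Nutlin-3a but not the ligand, and the peak names of the RAD21 line carry the letters KD for knockdown. All 4 libraries had received Nutlin-3a for 1 h. Lists at 0 h (both lines, vehicle) and 10 h (WT only) and the H3K4me1 lists of WT at 1 h served as further readouts. The labels number the replicates BR1 and BR2 and the study calls its replicates biological. How separate the cultures were is not stated there, and p-values measure the spread between replicate lists, estimated largely over many regions together. An engineered line and its parent differ by derivation as well as by the tagged gene. By the study's account the ligand and the loss of RAD21 also separate the groups, and all of these cannot be told apart here.

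RAD21 is the kleisin subunit of cohesin, the ring complex that extrudes chromatin loops and holds together distant enhancers and promoters, often where CTCF is bound. Nutlin-3a blocks the inhibitor MDM2 and thereby stabilises p53, a transcription factor that binds a response element of paired decamers in promoters and in distant enhancers. H3K27ac marks active promoters and enhancers, while H3K4me1 marks enhancers that are primed or active. The comparison asks which regions carried another amount of H3K27ac in the cohesin line soon after p53 was activated. In bulk ChIP, fewer marked cells and less mark per cell cannot be told apart.

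The 4 lists held between 31640 and 40851 peaks and covered 31.9 to 64.1 Mb. WT replicate 1 stood apart. It had the fewest peaks, its widest peak was 4210 bp against 47504 to 62993 bp in the other lists, its peak names lack the word input, and the local background recovered under its peaks followed their height (Spearman's rho 0.905 across peaks, against 0.00661 to 0.241 in the others). Absence from that list therefore does not have the meaning it has in the others, and shares of the regions called in 1 line alone are given with and without it, the latter for some as alternatives added after seeing the data. The height of a peak was recovered as the pileup, the number of fragments over its summit, which does not depend on the control. Pileups came out whole, within 0.02, for all peaks of the 4 lists. Over the 22466 regions called in all 4 lists the median pileup was 77 and 58 in WT and 77 and 120 in the RAD21 line, replicates 1 and 2. The files hold no read totals. Log2 pileups of replicates correlated with r = 0.980 in WT and 0.985 in the RAD21 line, and with 0.937 to 0.946 between lines, across regions. The promoters of 13 of 22 colorectal epithelial markers, EPCAM, CDH1, KRT8, KRT18 and CDX2 among them, were called in all 4 lists, while VIL1, CEACAM5, LGALS4 and KRT20 had no region at their start sites. Of 22 markers of other cell types CD68 alone was called in all 4 lists, HBA1 was called in 1 list and no other had a region.

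H3K27ac was called in both RAD21 line lists and in neither WT list at 2834 regions (5.38% of 52673) and in both WT lists and in neither RAD21 line list at 1011 regions (1.92%). These sets held unequal shares of a feature that the calls did not use, a p53 response element at the summit. The 100 bp on each side of every summit were searched on both strands for 2 adjoining decamers with both cores intact, and the other bases that departed from the consensus were counted. The 5 elements of regions called in WT alone that match the consensus in full are printed here with 1 that is 1 base off, since they show what was called in WT and not in the RAD21 line. Each is named by the nearest protein-coding gene and written on GRCh37, plus strand, with the 20 bases of the element in capitals and 5 flanking bases on each side.
PCNX1 (chr14:71331933-71331962): tatgtGGACATGCCCAGGCAAGCCTggtag
HLA-B (chr6:31296588-31296617): agctgGGACATGTTTGGGCATGTCTggtca
SYNE1 (chr6:152543125-152543154): tgcccAGACATGTCCAAACTTGCCTtgtgc
GPBP1 (chr5:56363545-56363574): acaagGGGCTTGCCTAAACATGTCCacagt
C2CD4B (chr15:62554971-62555000): agctgGGACATGCCTGGGCATGTCCaagca
JPH2 (chr20:42718874-42718903): catgaGAACAAGCCCATGCTAGCCTgttgg

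An element at most 1 base off was present in 74 of 52673 regions (0.140%), in 11 of the 1011 regions of WT alone (1.09%, 95% Wilson interval 0.609 to 1.94%) and in 0 of the 2834 regions of the RAD21 line alone (Wilson upper limit 0.135%; the 3 counts that a count of 0 allows would be 0.106%). When 2 bases were allowed to differ, 12 regions of WT alone and 10 of the RAD21 line alone held an element (1.19% and 0.353%, against 0.309% of all regions), and all 10 of the latter were 2 bases off. The 2 of these in the highest regions of the RAD21 line alone are printed for comparison, in the same form.
UBP1 (chr3:33404669-33404698): actacAGGCATGCCCCACCATGCTCtgctg
LCOR (chr10:98574342-98574371): accacAGGCATGCACAACCATGCCCagcta

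None of the 11 regions of WT alone was a promoter. The summits of 4 lay in introns, those of BACH1, SYNE1 and NEO1 among them, the other 7 were intergenic, and 7 lay over 50 kb from a start site. Both WT lists at 10 h held all 11, as they held 61 of all 74 regions with an element at most 1 base off and 7 of the 10 regions of the RAD21 line alone with an element 2 bases off. At the element near GPBP1 the pileup was 12 and 14 in WT replicates 1 and 2, near PCNX1 21 and 16, and near HLA-B 21 and 11, all low peaks without a call in either RAD21 line list. The elements near AKR1D1 and in NEO1 hold the same 20 bases, so reads of these copies may be hard to place. H3K4me1 covered 3 of the 11 in both WT lists and 8 in neither, where 30 of the 74 and 18.3% of all regions were in neither.

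Counted by list, 50 regions of WT replicate 1 and 50 of WT replicate 2 held an element at most 1 base off, against 28 and 31 in the RAD21 line (0.174% and 0.137% against 0.0784% and 0.0882% of the regions called). The WT values lay above both RAD21 line values. At 0 h the lines overlapped, with 34 and 29 in WT and 27 and 33 in the RAD21 line, and at 10 h WT held 61 and 65. The counts at 0 h and 10 h are over regions that were also called at 1 h. With any 1 of the 4 lists left out, an alternative added after seeing the data, the share in regions of WT alone ran from 0.264% (22 of 8327, without WT replicate 1) to 0.899% and that in regions of the RAD21 line alone from 0% to 0.0522%.

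**Figure D1:**
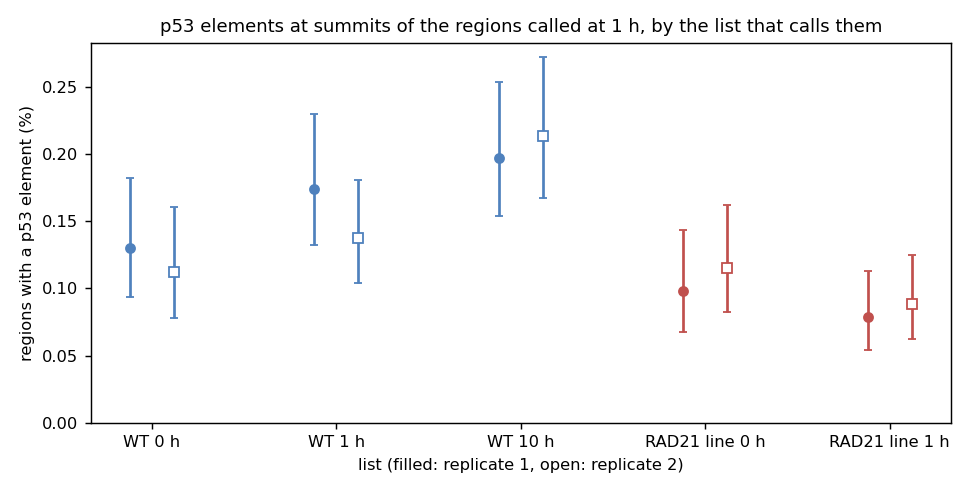
Percent of the regions called in each H3K27ac list that hold a p53 element at most 1 base off within 100 bp of the summit, among the 52673 regions called at 1 h; circles are replicate 1, squares replicate 2, and bars are 95% Wilson intervals. The RAD21 line lists at 1 h are lowest (0.0784% and 0.0882%) and the WT lists at 10 h highest (0.197% and 0.214%).

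Regions with such an element were also compared where both lines had a peak. Of the 22466 regions called in all 4 lists, 18 outside promoters held an element at most 1 base off, and 14 of these had a difference below 0 (RAD21 line minus WT, on the centred log2 scale described below), 9 past the threshold of limma with Benjamini-Hochberg adjustment in the lower direction and none in the higher one. Of all tested regions outside promoters 62.8% had a difference below 0, 25.0% were lower and 10.1% higher (17% and 18.2% with promoters included). Under quantile normalization 5 of the 18 were lower and none higher, against 16.6% and 13.3% outside promoters (15.2% and 15.5% of all tested). Their median difference was −0.63 (−0.25 under quantile normalization, −0.24 relative to regions of the same level), beside −0.16 (−0.01 and −0.02) over all 11402 tested regions outside promoters. The region 115 kb from FAM3C had pileups of 25 and 21 in WT and 13 and 20 in the RAD21 line (difference −1.0 ± 0.22 SE), and that 23 kb from MED4 had 21 and 24 against 11 and 18 (−1.15 ± 0.24). In a region of higher pileup, 44 kb from MICAL2, the values were 113 and 79 against 119 and 179 (0.10 ± 0.15, adjusted p = 0.622, limma). The 1 promoter with such an element, that of TTC8, went the other way, with 118 and 68 against 139 and 228. It was higher, past the threshold under both scalings (0.46 ± 0.13, and 0.39 under quantile normalization).

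Regions called in 1 line only split unevenly by distance. A merged region counts as a promoter if any part overlaps 1000 bp upstream to 200 bp downstream of a protein-coding start site. Its pileup is that of its highest peak, which can lie outside this window. The summits at ITGBL1 and ULK1, for example, lay 2.69 and 1.77 kb from a start site. Of the regions of the RAD21 line alone, 118 or 4.16% were promoters. A further 1049 or 37% had their summit within 10 kb of a start site and 233 or 8.22% (interval 7.27 to 9.29%) had it over 100 kb away. Of the regions of WT alone, 61 or 6.03% were promoters, 146 or 14.4% lay within 10 kb and 251 or 24.8% (22.3 to 27.6%) over 100 kb away. Among all 52673 regions 23.3% were promoters, 23.6% lay within 10 kb and 9.62% over 100 kb away, so promoters were scarce in both sets. Outside promoters the median distance to a start site was 14.2 kb for regions of the RAD21 line alone and 40.8 kb for regions of WT alone. Wilson intervals cover counting error only.

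**Figure D2:**
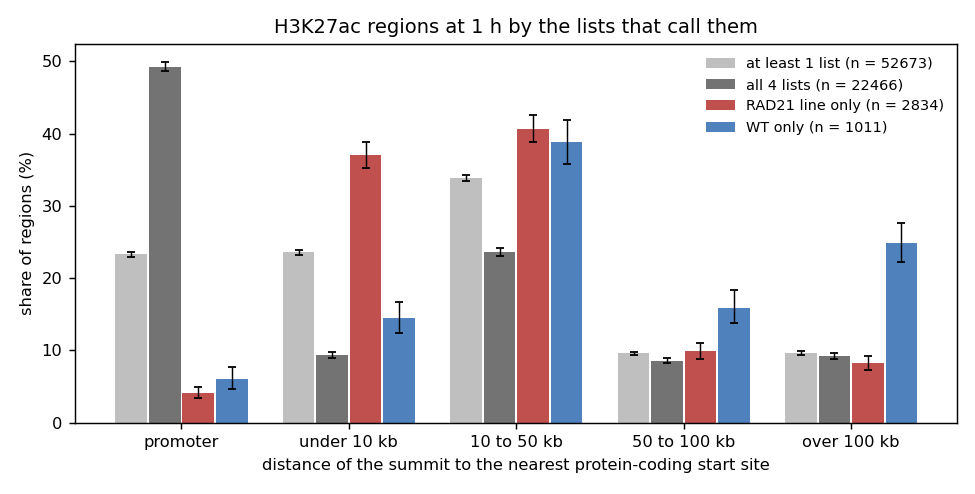
Share of H3K27ac regions in each class of distance to the nearest protein-coding start site, in percent, for regions called in at least 1 list, in all 4 lists, in both RAD21 line lists only and in both WT lists only; error bars are 95% Wilson intervals. Regions of WT alone have the tallest bar over 100 kb (24.8%), and regions of the RAD21 line alone have the tallest bar under 10 kb (37%).

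The difference in distance depended on the list that stands apart. Without WT replicate 1, 8327 regions were called in WT alone and 11.4% of them lay over 100 kb away, against 10.8% of those of the RAD21 line alone, 31.8% and 31.4% lay within 10 kb, and the median distances were 18.6 and 17.3 kb. Without WT replicate 2, 3777 regions were called in WT alone and 5848 in the RAD21 line alone, and leaving out RAD21 line replicate 1 or 2 gave 7009 and 7656 regions in the RAD21 line alone. Where presence was limited to peaks with a −log10 q-value of 5 or more, 362 regions of WT alone and 937 of the RAD21 line alone were left, and 32.0% and 12.9% of them lay over 100 kb away. These regions were low in the lists that called them, with median pileups of 18 and 15 in WT and 13 and 17 in the RAD21 line.

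Most of these regions carried H3K4me1 in WT cells at the same time. Both WT H3K4me1 lists covered 2130 of the 2834 regions of the RAD21 line alone (75.2%, interval 73.5 to 76.7%) and 844 of the 1011 regions of WT alone (83.5%, 81.1 to 85.6%), beside 77.5% of all regions and 99.2% of regions called in all 4 lists. The order turned without WT replicate 1 (80.3% and 51.7%), without WT replicate 2 (81.7% and 62.3%) and where peaks had to cover at least 50% of a region (91.9% and 90.3%). Within the RAD21 line alone the share was 70.3% under 10 kb and 92.3% over 100 kb. The calls of the other times differed between the sets: both WT lists at 0 h held 8.05% of the regions of the RAD21 line alone and 44.7% of those of WT alone, and both RAD21 line lists at 0 h held 21.5% and 15.3%. Without WT replicate 1 these shares were 17% and 7.77% for the WT lists and 25.8% and 7.28% for the RAD21 line lists, so the order of the WT shares turned as well. Many regions of both sets, taken from all 4 lists at 1 h, were called in WT at 10 h. Both WT lists at 10 h held 29.2% of the regions of the RAD21 line alone and 40.9% of those of WT alone. A further 19.5% and 16.1% were called in 1 of these lists. Regions of the RAD21 line alone at 1 h were thus in part called in WT at another time.

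Among the regions of the RAD21 line alone, 4 of the 6 promoters that ranked highest belonged to genes of KRAB zinc finger proteins, which are DNA-binding repressors. The 6 were those of ENSG00000286098, ZNF595, ZNF234, ZNF426, APP and ZNF419. At 1 h the ZNF595 promoter had pileups of 53 and 64 in the RAD21 line, and at 0 h 39 and 47, with no peak in WT at either time. ZNF426 had 35 and 50 at 1 h and 46 and 59 at 0 h, again with none in WT, whereas APP, the amyloid precursor, had 37 and 44 at 1 h and was called in WT at 0 h at 52 and 31. Of the 118 promoters of the RAD21 line alone 8 were of genes named ZNF (6.78%, interval 3.48 to 12.8%), beside 3.04% of all promoter regions. Without WT replicate 1 it was 13 of 209 (6.22%). Of the ZNF promoters called in all 4 lists 89 of 350 were higher (25.4%) and 26 lower (7.43%), beside 26.5% and 8.71% of all promoters tested. Reads of these related genes can be hard to place.

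Outside promoters the highest regions of the RAD21 line alone were nearest MLN, FBXO33, RPA4, EPHA4, GLIS3 and FSD1L. The intronic region 5.80 kb from the start of GLIS3, a Krüppel-like transcription factor, had 50 and 71 at 1 h and 8 and 17 at 0 h. The region in EPHA4, an ephrin receptor, had 55 and 73 at 1 h and 66 and 89 at 0 h, with 11 in 1 WT list at 0 h. MLN, FBXO33 and RPA4 were likewise held by both RAD21 line lists at 0 h, and FSD1L by both WT lists at 0 h (66 and 59) and 1 RAD21 line list. By nearest gene, FAT1, which encodes an atypical cadherin, had the most regions of the RAD21 line alone (9, chosen after the values were seen). These were low, with pileups between 10 and 25, and the FAT1 promoter itself had 275 and 175 in WT and 212 and 440 in the RAD21 line, overlapping.

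Regions of WT alone included promoters of ITGBL1, HSPA1L, PRKAA2, GPR176, TBC1D3I and MUC2. The ITGBL1 promoter, of an integrin-like protein, had 87 and 69 in WT at 1 h and 70 and 56 at 0 h, with no peak in any of the 4 RAD21 line lists. HSPA1L, a heat shock protein gene that shares its promoter region with HSPA1A, had 55 and 45 at 1 h and 92 and 71 at 0 h, and none in the RAD21 line. PRKAA2, the α2 catalytic subunit of AMP-activated kinase, had 53 and 32, and MUC2, the intestinal secreted mucin, 29 and 20. The TBC1D3I promoter, in a multicopy family and so uncertain, was called in both RAD21 line lists at 0 h. Other regions of WT alone lay nearest C7orf50, PLGLB1, NPIPA7, NOS1AP, PIK3R1 and NR5A2. The region 441 kb from PIK3R1, the regulatory subunit of PI3-kinase, had 74 and 55 at 1 h and 157 and 122 at 0 h. PLGLB1 and NPIPA7 belong to duplicated families, and their placement is uncertain.

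Where all 4 lists had a peak, about as many regions were higher as lower. Pileups were taken as log2(pileup + 1), each list was centred on its median over the 22466 regions, and the RAD21 line was compared with WT in a limma fit over all 10 H3K27ac lists. At a Benjamini-Hochberg adjusted p under 0.05, 4083 regions were higher in the RAD21 line (18.2%) and 3813 lower (17%). Both RAD21 line values lay above both WT values at 7299 regions (32.5%) and below at 6963 (31%). Large differences ran mostly downward: 150 regions were at least 2-fold higher (0.668%) and 791 at least 2-fold lower (3.52%). Under quantile normalization, which gives the lists 1 common distribution, 3493 were higher (15.5%) and 3426 lower (15.2%), with 2916 and 2368 of these among the calls above and none opposite, and the 2-fold counts were 254 and 328. Without any centring, when the median difference was 0.53 in favour of the RAD21 line, 2302 were higher and 171 lower, so direction is relative to the typical region. Without WT replicate 2 the counts were 2201 and 2344, and without RAD21 line replicate 2 they were 2192 and 2411.

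Promoters and distal regions moved apart under median centring, and much of this went with the height of the peak. Of 11064 promoters 2928 were higher and 964 lower (median difference 0.14), and of 2068 regions over 100 kb from a start site 164 were higher and 646 lower (median −0.24). Promoters made up 71.7% of the higher and 25.3% of the lower regions. The difference followed the level, from −0.47 in the lowest of 10 equal groups of regions to 0.25 in the highest, and promoters had the higher levels. Replicates differed by level as well: RAD21 line replicate 2 minus 1 was 0.17 at promoters and −0.13 over 100 kb. Under quantile normalization the class medians were 0.03 at promoters, 0.01 under 10 kb, 0.01 at 10 to 50 kb, −0.04 at 50 to 100 kb and −0.09 over 100 kb.

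What remained at matched level was a lower median in the regions farthest from protein-coding start sites. Relative to regions of the same level (20 bins), the median was 0.01 at promoters and −0.10 over 100 kb, where replicates of the same line differed by −0.01 in WT and −0.05 in the RAD21 line. Regions over 100 kb away made up 25.0% (interval 22.1 to 28.2%) of regions at least 2-fold lower and 12% (7.73 to 18.2%) of those at least 2-fold higher, beside 9.21% of all tested. Under quantile normalization 108 of the 328 regions at least 2-fold lower and 38 of the 254 at least 2-fold higher lay there.

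**Figure D3:**
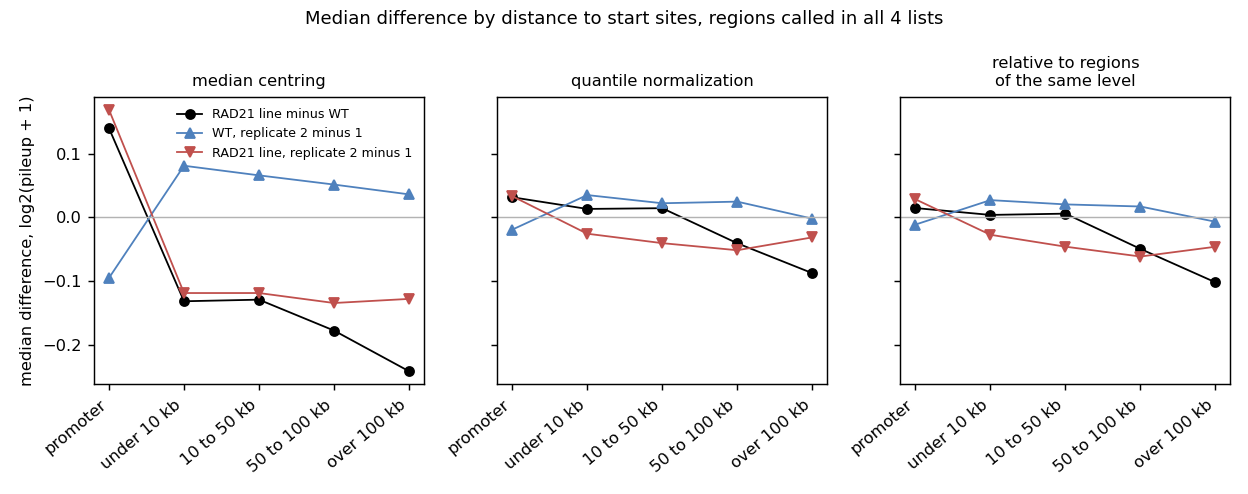
Median difference in log2(pileup + 1) by class of distance to the nearest start site, over the 22466 regions called in all 4 lists, under median centring (left), under quantile normalization (middle) and relative to regions of the same level (right); black circles are the RAD21 line minus WT and triangles replicate 2 minus replicate 1 of each line. At matched level the black line falls to −0.10 over 100 kb, while replicates of 1 line differ there by −0.01 and −0.05.

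By H3K4me1 state, regions without the mark in WT were the exception among tested regions and were mostly lower. Both WT H3K4me1 lists covered 22295 of the 22466 regions (4076 higher and 3725 lower, median 0.02). In the 104 regions that neither list covered, 62 were lower and 2 higher, with a median of −0.69 (36 and 3 with a median of −0.39 under quantile normalization). These regions were low as well, and relative to regions of the same level their median was −0.34. Replicate 2 minus 1 had a median of 0.15 in WT and −0.18 in the RAD21 line over the same 104 regions.

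Of the 8 lower regions with the smallest p and without overlap between lines, 6 lay over 100 kb from a start site and 2 were promoters. They are described with their pileups in WT replicates 1 and 2 and then RAD21 line replicates 1 and 2. The intergenic region 321 kb from IRS1, the adaptor of insulin and IGF1 receptors (chr2:227339505-227344831, GRCh37), had 116, 111, 14 and 21, a difference of −3.17 ± 0.18 (SE) or 9.02-fold lower (adjusted p = 1.2e-43, limma). Both WT values lay far above both RAD21 line values. The intergenic region 649 kb from NYAP2 (chr2:226911925-226916565), next to the IRS1 stretch, had 117, 98, 24 and 29 (−2.50 ± 0.16), and that 172 kb from NR5A2, a nuclear receptor of liver and intestine (chr1:199823054-199827053), 136, 87, 30 and 25 (−2.47 ± 0.17).

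HMGA2, a chromatin architectural protein, had a region at 215 kb with 94, 60, 14 and 19 (−2.65 ± 0.18). The region 129 kb from DKK1, a secreted Wnt inhibitor, had 154, 119, 41 and 58 (−1.97 ± 0.15). Among promoters, EHF, an epithelial ETS factor, had 74, 61, 16 and 16 (−2.52 ± 0.19) and ASAP1, which activates the GTPase of ARF proteins, 175, 126, 32 and 51 (−2.37 ± 0.18). The region nearest PLGLB1 had 137, 129, 46 and 65 (−1.78 ± 0.14) in a duplicated stretch where placement is uncertain. In all 8 the lines were separate, and every one was also lower and past the threshold under quantile normalization.

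**Figure D4:**
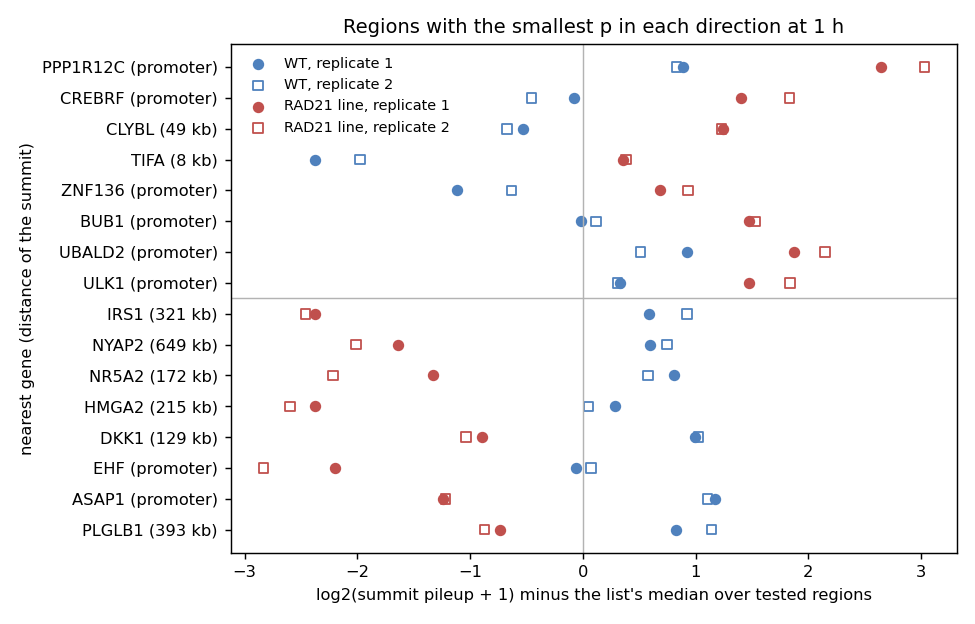
log2(summit pileup + 1) in each of the 4 lists at 1 h, minus the median of that list over tested regions, for the 8 higher and the 8 lower regions with the smallest p; blue is WT, red the RAD21 line, circles replicate 1 and squares replicate 2. The lines do not overlap in any of these regions, which is how they were chosen, and replicates of a line lie closer to each other than to the other line.

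The IRS1 neighbourhood held the most such regions, 8 at least 2-fold lower (chosen after the values were seen). Of 12 tested regions outside the promoter that had IRS1 as the nearest gene, across 657 kb of chromosome 2, 10 were lower and none higher, and a further 8 regions were called in WT alone and none in the RAD21 line alone. The region 614 kb away had 282, 188, 67 and 120 (−1.87 ± 0.13). The regions at 684 kb (142, 110, 150 and 301, 0.24 ± 0.14) and 44 kb (210, 185, 195 and 287, −0.26 ± 0.13) were not past the threshold, so the stretch was not uniform. The IRS1 promoter had 161, 126, 102 and 171, with lines that overlapped before centring (−0.63 ± 0.13, adjusted p = 7.1e-05, limma). At 0 h the 7 regions at least 2-fold lower that lay over 100 kb away had differences from −1.80 to −1.01, while the region at 27 kb stood at 0.17. Near NR5A2 all 4 tested regions were lower and 9 more were called in WT alone. Copy number of such a stretch and its acetylation cannot be told apart from these lists.

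Of the 8 higher regions chosen alike, 6 were promoters. PPP1R12C (chr19:55622988-55630944), a regulatory subunit of myosin phosphatase, of which an intron holds the AAVS1 site commonly used for transgenes, had 143, 104, 487 and 987, a difference of 1.98 ± 0.13 or 3.94-fold (adjusted p = 1.5e-37, limma). CREBRF, a regulator of the CREB3 factor, had 73, 42, 205 and 430 (1.88 ± 0.13). The intronic region in CLYBL, a mitochondrial lyase gene (chr13:100306746-100309019), had 53, 36, 184 and 283 (1.84 ± 0.15), and that 8.12 kb from TIFA, an adaptor of NF-κB signalling, 14, 14, 99 and 157 (2.55 ± 0.21). In each the lower RAD21 line value lay at least 2 times above the higher WT value before centring.

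ZNF136, a zinc finger repressor, had 35 and 37 in WT and 124 and 230 in the RAD21 line (1.68 ± 0.16), and BUB1, a mitotic checkpoint kinase, 76 and 63 against 215 and 349 (1.45 ± 0.14). UBALD2 had 147, 83, 285 and 535 (1.29 ± 0.13) and ULK1, the kinase that starts autophagy, 97, 72, 215 and 432 (1.34 ± 0.14). All 8 were past the threshold under quantile normalization, with differences from 1.30 to 2.65.

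Across regions, line differences at 1 h and at 0 h had r = 0.07. The lists at 0 h entered the comparison at 1 h through the merging of regions and the common estimate of spread. In them 3644 of 20791 regions were higher in the RAD21 line (17.5%) and 6718 lower (32.3%). Of the regions called at both times, 1874 had the same sign and 1987 the opposite sign. PPP1R12C, CLYBL, TIFA, ZNF136 and UBALD2 were higher at 0 h too, PPP1R12C with 211 and 186 in WT and 446 and 643 in the RAD21 line (2.15). The IRS1 region was lower at 0 h (98, 83, 17 and 18, −1.59), and DKK1 and EHF were lower with a single RAD21 line peak of 20 each (−2.12 and −1.12, the list without a peak left out). For NR5A2 and HMGA2 neither RAD21 line list had a peak at 0 h, where WT had 104 and 71, and 75 and 62. The regions of NYAP2 and BUB1 did not pass the threshold at 0 h (−0.19 at each, adjusted p = 0.356 and 0.275, limma).

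CREBRF turned about. In WT its promoter had 361 and 322 at 0 h and 73 and 42 at 1 h, and in the RAD21 line 67 and 91 at 0 h and 205 and 430 at 1 h. The difference of −1.40 at 0 h became 1.88 at 1 h, and the change of 3.28 ± 0.19 passed the threshold (adjusted p = 3.7e-45, limma). ULK1 moved likewise, from −0.94 to 1.34. The ASAP1 promoter stood at 0.00 at 0 h (58, 53, 32 and 35) and rose to 175 and 126 in WT at 1 h, where the RAD21 line had 32 and 51.

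RAD21 itself had a higher promoter signal in its own line, with 203 and 166 in WT and 276 and 589 in the RAD21 line (0.61 ± 0.13, adjusted p = 3.9e-05, limma). The mark at the promoter says nothing of the protein, which the degron acts on, so the depletion was not checked here. Among the promoters of p53 targets, MDM2, the ubiquitin ligase that restrains p53, had 370, 254, 402 and 770 (0.34 ± 0.13, adjusted p = 0.0245), and CDKN1A, the p21 cell cycle inhibitor, 177, 120, 198 and 352 (0.33 ± 0.13, adjusted p = 0.0367, limma for both). Neither passed under quantile normalization (0.08 and 0.21). BAX, a mitochondrial pore protein, had 0.31 ± 0.13 (adjusted p = 0.0532, limma).

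PPM1D, the phosphatase that ends the p53 response, had 286, 216, 450 and 864 (0.81 ± 0.13, 0.67 under quantile normalization, past the threshold in both). PLK2, a polo-like kinase, had 222, 157, 268 and 485 (0.43 ± 0.13), TEP1 123, 65, 125 and 236 (0.42 ± 0.14), PCM1 207, 119, 243 and 417 (0.50 ± 0.13) and LAMC1, the laminin γ1 chain, 195, 136, 225 and 379 (0.32 ± 0.13). Of these PLK2 and PCM1 also passed under quantile normalization. CD9, a tetraspanin, was lower, with 153, 102, 84 and 140 (−0.72 ± 0.15, −0.78 under quantile normalization). TGFBR2 (0.19 ± 0.13), GSR (0.12 ± 0.13), BRD7 (0.15 ± 0.14), TENT4B (0.03 ± 0.13) and TGFA (0.05 ± 0.13) did not pass, and all 5 turned to below 0 under quantile normalization. JAG2 (−0.16 ± 0.14) and S100A1 (−0.11 ± 0.14), which shares its promoter region with S100A13, did not pass either.

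By list, promoters of 39 of 41 canonical p53 targets were tested, of which 17 were higher and none lower (median difference 0.30, against 0.14 over all promoters, of which 26.5% were higher and 8.71% lower). Under quantile normalization 9 were higher and 2 lower, with a median of 0.14 against 0.03 and with 17.9% higher and 13.9% lower among all promoters. The counts of the other lists are to be read against the same shares. PHLDA3, an inhibitor of AKT, had 156, 97, 238 and 481 (0.93 ± 0.13) and DDB2, a damage recognition factor, 250, 155, 313 and 554 (0.56 ± 0.13). XPC, also of DNA repair, had 0.55 ± 0.13 and the exonuclease AEN 0.55 ± 0.13. Of 31 genes that the study named as distal targets of p53, a list chosen on these samples and so no independent evidence, 9 were higher, a share near that of all promoters, and 3 lower (5 and 7 under quantile normalization).

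Cohesin and CTCF genes had 9 of 18 promoters higher and 1 lower, beside 26.5% and 8.71% of all promoters (median 0.35). Under quantile normalization 6 were higher and 3 lower (median 0.16). MAU2, part of the cohesin loader, had 124, 80, 203 and 359 (0.91 ± 0.13), its partner NIPBL 173, 112, 226 and 391 (0.57 ± 0.13) and the subunit STAG1 283, 182, 323 and 709 (0.55 ± 0.13). STAG3, the germline subunit, was lower with 43, 34, 28 and 32 (−0.86 ± 0.23).

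Interferon response genes had 6 of 24 promoters higher and 1 lower, under both scalings, where 26.5% of all promoters were higher under median centring and 17.9% under quantile normalization. PSMB9 and TAP1, neither of them called, share 1 of these promoter regions and were counted apart. The RNA sensors DDX58 (34, 29, 80 and 124, 1.12 ± 0.19) and IFIH1 (63, 59, 136 and 205, 0.92 ± 0.15) and the factors IRF9 (45, 28, 76 and 138, 0.98 ± 0.15) and STAT2 (0.64 ± 0.13) were higher, and OASL lower (45, 33, 20 and 30, −1.15 ± 0.20). The list had a median of 0.13, beside 0.14 over all promoters. At 0 h IRF9 had been lower in the RAD21 line, with a difference of −1.56.

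Integrated stress response genes split: 4 of 20 were higher and 5 lower, and under quantile normalization none higher and 8 lower, beside 26.5% and 8.71%, and 17.9% and 13.9%, of all promoters. Those lower in both were enzymes and regulators of amino acid supply and stress, ASNS (211, 139, 91 and 134, −1.15 ± 0.13), CHAC1 (151, 120, 79 and 157, −0.79 ± 0.13), DDIT4 (196, 159, 114 and 218, −0.68 ± 0.13), PSAT1 (199, 129, 114 and 183, −0.67 ± 0.13) and the transporter SLC7A5 (−0.35 ± 0.13). For ASNS both RAD21 line values lay below both WT values before centring, whereas for CHAC1 and DDIT4 the lists overlapped before centring.

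Wnt targets and intestinal stem cell genes had 6 of 19 promoters lower and 1 higher, beside 8.71% and 26.5% of all promoters (median −0.20). Under quantile normalization 8 were lower and 1 higher (median −0.25), beside 13.9% and 17.9%. MYC had 209, 147, 115 and 217 (−0.67 ± 0.13), PROM1 56, 45, 27 and 49 (−0.97 ± 0.21) and NKD2 48, 43, 26 and 46 (−0.90 ± 0.21), while TNFRSF19 had 23, 22, 47 and 67 (0.76 ± 0.21). Of AP-1 and immediate early genes 8 of 26 were higher, JUNB (275, 165, 405 and 783, 0.88 ± 0.13) and JUN (0.62 ± 0.12) among them, and 5 lower, with EGR3 lowest (167, 88, 69 and 109, −1.0 ± 0.14). Under quantile normalization the balance turned, with 7 higher and 9 lower and a median of −0.04 in place of 0.18. Laminin, integrin and hemidesmosome genes had 3 of 18 higher and 4 lower (LAMB1 54, 43, 24 and 36, −1.21 ± 0.21), and 2 and 7 under quantile normalization. Intestinal epithelial transcription factors had 2 of 14 in each direction, and 1 higher and 4 lower under quantile normalization. Colorectal epithelial markers had none of 13 higher and 2 lower, EHF and CLDN4, and none and 7 under quantile normalization. KRT8 and KRT18 share 1 of these promoter regions and were counted apart. Of the markers of other cell types CD68, the 1 tested, was higher (0.48 ± 0.13). Its part in the other differences was not tested.

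**Figure D5:**
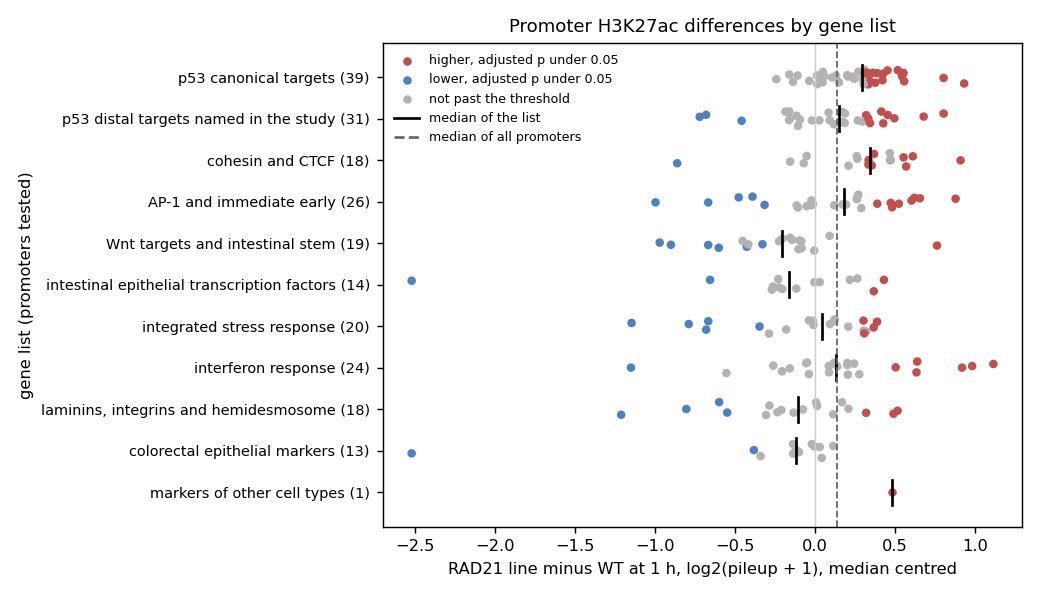
Difference in promoter H3K27ac between the RAD21 line and WT at 1 h, in log2(pileup + 1) after median centring, for each gene of the lists; red points were higher and blue points lower at an adjusted p under 0.05 (limma), grey points did not pass, black bars are list medians and the dashed line is the median of all promoters (0.14). Canonical p53 targets lie mostly to the right (median 0.30), Wnt targets mostly to the left (median −0.20).

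Other motifs were searched alike. The AP-1 heptamer TGANTCA, in the same 201 bp windows on both strands, was present in 8.33% of all regions outside promoters, in 10.5% (interval 9.42 to 11.7%) of lower and 5.54% (4.36 to 7.01%) of higher tested regions outside promoters, in 11.4% (9.5 to 13.5%) of those of WT alone and in 9.76% (8.70 to 10.9%) of those of the RAD21 line alone. The 1008 tested regions outside promoters with the heptamer had a median difference of −0.24 (−0.07 under quantile normalization) beside −0.16 (−0.01) for all. A CTCF consensus with at most 1 base off was present in 0.930% of all regions, in 0.882% of those of the RAD21 line alone and in 0.791% of those of WT alone. A match says only that these letters lie in the window.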

How the data were processed

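ChIP-seq of H3K27ac and H3K4me1 in HCT116 and the RAD21 line was used as peak lists of single libraries. According to the study's methods and the submitters' processing notes, reads were trimmed (Trim Galore 0.6.6), mapped to GRCh37 (Bowtie2 2.3.2), filtered with SAMtools and passed to MACS2 2.2.7.1, with an input as control. Per peak, the authors deposited a fold (a ratio to local background), a −log10 p-value of a Poisson test and its q-value, also as −log10. From fold and −log10 p-value the summit pileup and local background of each peak were solved with the formulas of MACS2. In the WT lists at 10 h, replicates 1 and 2, 161 and 101 peaks had no exact solution and kept an approximate value. Only 4.52% and 4.78% of the pileups there came out whole. In the fit these lists add to the estimate of spread. Input libraries were not analysed here. No read totals were used, so depth is known only through pileup and background. Groups and replicate numbers came from the sample labels, from which numbers inside some peak names differ.

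Regions called in all 4 lists at 1 h were tested with limma 3.58.1 (R 4.3.3; lmFit and eBayes with trend, no covariates) over all 10 H3K27ac lists, on log2(pileup + 1) with a pseudocount of 1, missing where another list had no peak. The fit was tested on simulated data. Its estimate of spread came mostly from regions of similar level together (median prior degrees of freedom 314). Standard errors and p-values therefore reflect the replicates of a single region only in small part. No permutation test was run, since 2 lists against 2 cannot pass 0.05. Genes came from the GENCODE annotation on GRCh37. H3K4me1 state was overlap of at least 1 bp with the WT lists at 1 h. Named were 17 promoters whatever their values, the 8 regions of smallest p per direction without overlap between lines and at most 1 per nearest gene, the 6 highest regions per set of 1 line alone for promoters and others, and list members that passed. Regions, lists and tests were chosen with earlier results of these data known. Deviations of the same-numbered lists of the 2 lines at 1 h correlated at −0.24. Replicates differed with level in opposite directions in the 2 lines, so this value cannot show whether replicate numbers pair the lists. No pairing was used in the main fit. Alternatives covered merging, thresholds, overlap, distance, measure, scaling, pseudocount, filter, samples, covariates and left-out lists. Some items are not reported here.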

Additional observations from a re-analysis of the deposited data

Results flagged for a closer look

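Of the named regions, 33 differed between the lines in opposite directions at 0 h and at 1 h, with both differences and their change past the threshold (limma, Benjamini-Hochberg adjusted p under 0.05, 2 lists per group). Many of the named regions had been chosen because they passed at 1 h. Of all 20791 regions with values at both times, 1987 had differences past the threshold at both times with opposite signs. The change of the line difference passed the same threshold above 0 at 6044 and below 0 at 3538. Promoters as a class moved from a median difference of −0.19 at 0 h to 0.14 at 1 h, so that changes of this kind were common. Both WT lists at 0 h and WT replicate 1 at 1 h have peak names without the word input. The part that this plays in these values was not tested.

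Values are the difference RAD21 line minus WT at 1 h minus the same at 0 h, on the log2 scale. Among regions of smallest p the change was 3.28 at CREBRF and 2.27 at ULK1, both from lower to higher, and −2.48 at the region nearest PLGLB1, from higher to lower. The flagged promoters on the lists of p53 targets all turned from lower to higher: PPM1D by 1.10, CCNG1 by 1.21, AEN by 1.14, PIDD1 by 1.12, FDXR by 0.93, TEP1 by 0.89, XPC by 0.85, RPS27L by 0.83, PLK2 by 0.75, RRM2B by 0.69, TNFRSF10B by 0.65, ATRIP by 0.75 and PRDX1 by 1.26. Other members of these lists were not flagged, among them CDKN1A (0.15 at 0 h and 0.33 at 1 h), MDM2 (0.07 and 0.34) and PCM1 (0.59 and 0.50). CD9 was lower at both times (−0.35 and −0.72). The cohesin genes NIPBL by 1.24, MAU2 by 1.24 and RAD21 by 0.94 also turned from lower to higher. So did the interferon genes IRF9 by 2.54 and ISG20 by 1.23. Immediate early genes gave MAFF by 1.33, EGR1 by 0.86 and DUSP6 by −1.42, the last from higher to lower. Stress response genes moved both ways, upward for XBP1 by 1.02, ATF5 by 0.92 and HERPUD1 by 0.74, and downward for ASNS by −2.19, CHAC1 by −1.40, PSAT1 by −1.14 and SLC7A5 by −0.78. The remaining promoters, LAMB2 by 0.95 and CD68 by 0.90, moved upward.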

How the results depend on the processing

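Counts of regions called in the RAD21 line alone were 937 with presence at a −log10 q-value of 5 or more and 1644 with 30000 peaks per list. They ranged from 3830 to 7656 when 1 list was left out. In WT alone there were 362 at the stricter q-value and 1398 to 8327 without 1 list, highest without WT replicate 1. The share over 100 kb for the RAD21 line alone was 12.9%, 10.9% and 9.36% with the stricter q-value, 30000 peaks and 50% overlap, 1.31% with all gene types, and 6.02 to 10.8% without 1 list. For WT alone it was 32.0% at the stricter q-value, 4.06% with all gene types and 11.4 to 24.1% without 1 list. The H3K4me1 share was 90.2%, 89.9%, 91.9%, 70.1% (broad peaks over at least 50%), 73.5% (merging the 4 lists) and 58.6 to 81.7% (without 1 list) for the RAD21 line alone. For WT alone, the first 4 of these and the last gave 91.4%, 90.4%, 90.3%, 79.6% and 51.7 to 86.6%. The other settings kept these counts within 1.5 times and the shares within their intervals.

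Higher and lower regions numbered 746 and 878 on ranks by −log10 p-value and 0 and 0 on ranks by fold (limma; 1840 and 1438 at an unadjusted p under 0.05). They numbered 2302 and 171 without centring, where the median of all differences was 0.53. Without 1 list they ranged from 2192 to 4655 and from 2344 to 3649. They were 2201 and 2344 without WT replicate 2 and 2192 and 2411 without RAD21 line replicate 2. Where 1 list is left in a group it is assumed to vary like the others. Replicate numbers as a block gave 3863 and 3558 and took 6 named regions out of the calls. The crossed pairing, added after seeing the data, gave 4476 and 3979.

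Differences of single regions changed sign as follows, all at promoters unless said. Without centring they were JAG2 0.36, S100A1 0.40, GTF2H4 0.060, IER3 0.13, DUSP6 0.20, CTGF 0.042, ZNRF3 0.093, CD44 0.19, SLC7A5 0.17 and CLDN4 0.14. On ranks by −log10 p-value they were TGFBR2 −0.063, GSR −0.14, BRD7 −0.23, TENT4B −0.37, MDM2 −0.014, BAX −0.097, TGFA −0.12, CCNG1 −0.087, WAPL −0.035 and PDS5B −0.029. On ranks by fold they were JAG2 0.34, BRD7 −0.35, TENT4B −0.48, TEP1 −0.28, BAX −0.28, TGFA −0.024, HMGA2 0.020, CCNG1 −0.54, DDIT4 0.28, CHD1L −0.36, PDS5B −0.49, MYC 0.44, DUSP6 0.26, CD44 0.27, HNF4G −0.058, OVOL1 0.036, SLC7A5 0.36, IFIH1 −0.0013 and CLDN4 0.46, where HMGA2 stands for its distal region. Under quantile normalization they were TGFBR2 −0.039, GSR −0.082, BRD7 −0.037, TENT4B −0.19 and TGFA −0.11. With the form of the peak names as a term S100A1 was 0.019, and in regions called in all 10 lists TENT4B was −0.011. Without 1 list the values ran from −0.028 to 0.33 at BRD7, −0.082 to 0.32 at GSR, −0.33 to 0.0058 at JAG2, −0.25 to 0.019 at S100A1, −0.041 to 0.098 at TENT4B and −0.089 to 0.19 at TGFA. The cause of these changes was not tested. Read depth is unknown, and the sets of 1 line alone consist of low peaks near the calling threshold.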

Other observations

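Regions outside promoters were compared with the promoter of their nearest gene. Of the tested regions outside promoters whose nearest gene had a higher promoter, 13.4% were higher and 20.4% lower (2106 regions), and where the promoter was lower, 5.75% were higher and 34.3% lower (1305 regions), beside 10.1% and 25.0% of all 11402. The medians were −0.08 and −0.27 beside −0.16, and 0.06 and −0.15 beside −0.01 under quantile normalization. Regions of a gene share its copy number and list scaling, and no test was made.

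By chromosome, the median difference ran from −0.05 on chromosome 18 to 0.11 on chromosome 19. Chromosome 19 had the lowest share of regions called in WT alone (0.741%, none over 100 kb from a start site) and chromosome 4 the highest (3.18%), while the share of the RAD21 line alone ran from 3.93% on chromosome 21 to 6.41% on chromosome 19.

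Beside IRS1, the nearest genes with the most regions at least 2-fold lower outside promoters were NR2F1 and SLC39A11, with 5 each among 12 tested, and ODAD2, ARHGAP29, DKK1 and MSI2 with 4 each, among 9, 10, 5 and 5. None of the 12 regions near NR2F1 or SLC39A11 was higher. LRBA and DNAJC1 had the most at least 2-fold higher, with 2 each. These were chosen after their values were seen.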
